A study of Mus musculus with 59 samples.

Results

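The transcripts of 8 heat shock and chaperone genes were examined in 59 mouse cells profiled singly by RNA-seq. Hsp90aa1, Hsp90ab1, Hspa8 and Hspa5 were taken as members that cells make constitutively, and Hspa1a, Hspa1b, Dnajb1 and Hspb1 as members that stress induces. The members were picked by symbol, and all 8 were present among the 20689 genes of the deposited table. The study set out to turn astrocytes of the living mouse brain into neurons with chemicals. The labels call every cell a chemical-induced neuron and give 1 age, 12 weeks, and the labels used here name no animal, strain, genotype, chemical or dose. RNA was collected in vivo by sucking out the cell body through a patch pipette. The 59 cells form 1 group and count as 1 sample, and control neurons, untreated astrocytes and untreated animals were not analysed here. No test between groups was therefore possible, and the values below describe these cells without a p-value.

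Heat shock proteins keep other proteins folded. Hsp70 proteins (Hspa genes) bind unfolded stretches in cycles driven by ATP, J-domain proteins such as Dnajb1 bring them their clients and speed the cycle, Hsp90 proteins act later on partly folded kinases and receptors, and small heat shock proteins such as Hspb1 hold unfolded proteins without ATP. Hspa5 (BiP) is the Hsp70 of the endoplasmic reticulum (ER) and a target of the unfolded protein response, while the inducible members are targets of heat shock factor 1 (HSF1), which binds heat shock elements made of inverted GAA units. Neurons are known to hold high levels of the constitutive proteins and to raise the inducible ones less readily than glia. Immediate early genes such as Fos and Egr1 are transcribed within minutes of a stimulus without new protein synthesis, and the level of each member was set beside theirs.

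The promoters of the inducible members are shown because the groups compared below are defined by inducibility. The RefSeq promoter table for GRCm38.p6, with windows of 250 bases before to 50 bases after each transcript start, held 5 of the 8 members. Those not in the table are Hsp90aa1, Hsp90ab1 and Hspa8. The first 4 stretches below give the 250 bases before the RefSeq start, 5′ to 3′ on the gene's own strand. In the first 3, capitals mark matches to a heat shock element of 2 units (GAANNTTC or TTCNNGAA), and in Dnajb1 they mark a CCAAT box in its reverse orientation. Of Hspa5 only the match to the ER stress response element is given, in capitals throughout.
Hspa1a, chr17:34972157-34972406, minus strand: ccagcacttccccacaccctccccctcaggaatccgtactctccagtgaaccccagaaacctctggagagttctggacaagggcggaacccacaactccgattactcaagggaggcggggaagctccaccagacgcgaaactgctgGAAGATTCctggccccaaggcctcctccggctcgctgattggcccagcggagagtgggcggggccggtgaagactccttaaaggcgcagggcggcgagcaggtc
Hspa1b, chr17:34959239-34959488, minus strand: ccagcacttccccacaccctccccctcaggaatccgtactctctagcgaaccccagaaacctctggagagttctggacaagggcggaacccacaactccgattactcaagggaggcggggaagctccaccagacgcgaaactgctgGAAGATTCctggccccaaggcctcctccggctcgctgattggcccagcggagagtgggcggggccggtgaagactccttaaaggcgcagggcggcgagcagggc
Hspb1, chr5:135887669-135887918, plus strand: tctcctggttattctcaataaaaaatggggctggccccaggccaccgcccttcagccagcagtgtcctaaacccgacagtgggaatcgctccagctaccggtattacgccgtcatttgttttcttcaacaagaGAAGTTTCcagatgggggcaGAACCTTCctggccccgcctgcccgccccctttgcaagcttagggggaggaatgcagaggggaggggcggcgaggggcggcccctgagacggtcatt
Dnajb1, chr8:83607925-83608174, plus strand: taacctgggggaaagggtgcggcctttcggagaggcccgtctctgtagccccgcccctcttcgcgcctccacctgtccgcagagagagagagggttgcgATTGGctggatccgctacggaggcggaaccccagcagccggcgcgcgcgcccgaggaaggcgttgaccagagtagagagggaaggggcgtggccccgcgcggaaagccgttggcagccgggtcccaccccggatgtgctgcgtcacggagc
Hspa5, chr2:34772025-34772043, plus strand: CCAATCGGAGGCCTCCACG

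The Hspa1a and Hspa1b stretches were the same at 247 of 250 positions (98.8%). They differ by C44T, T47C and T249G, counted from 1 at the 5′ end of the stretch with the Hspa1a base first. Both hold the 2-unit element at position -104 from the start, and Hspb1 holds it at positions -117 and -97. Searched on both strands, the 2-unit element was present in 15.1% of all 32851 windows, so its presence in 3 of 5 members is a description of these sequences and not a site. An element of 3 units (the 2-unit element followed by a further inverted unit at the same spacing) was present in 0.603% of windows and in 0 of the 5 members. The ER stress response element (CCAAT, then 9 bases of any kind, then CCACG, so that it contains a CCAAT box) was present in 39 windows (0.119%), among them that of Hspa5, where it lies at position -65 from a RefSeq start that falls inside the gene span of GENCODE M21. The CCAAT box (CCAAT) was present in 37.4% of windows and in those of Dnajb1, Hspa1a, Hspa1b and Hspa5. The cAMP response element (TGACGTCA, 1.79% of windows), the TATA box (TATAAA, 13.6%) and the CArG box (1.63%) matched 0 of the 5 members, which says only that these letters are not in these windows.

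The cells differed widely in depth and in the cell types their transcripts point to. A gene was called detected at 1 FPKM or more, a unit that divides fragments by exon length and by the mapped fragments of the cell. The cells held 475 to 10310 detected genes with a median of 3984. The depth estimated from the spacing of low FPKM values ran from 29043 to 2950400 fragments per cell. Neuronal markers were widely detected, all 15 of 15 in at least 50% of cells, and 10 of 11 oligodendrocyte markers, 7 of 12 microglial markers and 4 of 12 astrocyte markers were so too. The neuronal synaptic gene Snap25 was detected in 54 cells. Of 8 endothelial and mural markers in the table, 0 reached 50% of cells. The oligodendrocyte list had the highest mean log2(FPKM + 1) in 27 cells, the neuron list in 22, the microglia list in 8 and the astrocyte list in 2. These sets are called oligodendrocyte-high, neuron-high, microglia-high and astrocyte-high below, as a description of transcripts and not as a name for the cell.

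Across all cells, the constitutive cytosolic members were abundant and near universal, and the inducible members were patchy. Hsp90aa1 was detected in 59 of 59 cells (100%, 95% interval 93.9 to 100), Hspa8 in 58 (98.3%, 90.9 to 99.96), Hsp90ab1 in 57 (96.6%, 88.3 to 99.6) and Hspa5 in 48 (81.4%, 69.1 to 90.3). Dnajb1 followed with 41 cells (69.5%, 56.1 to 80.8), Hspa1a with 23 (39.0%, 26.5 to 52.6), Hspb1 with 15 (25.4%, 15.0 to 38.4) and Hspa1b with 4 (6.78%, 1.88 to 16.5). Of all genes, 11.7% were detected in at least 50% of cells, against 5 of the 8 members: the 4 constitutive ones and Dnajb1. The intervals are exact Clopper-Pearson intervals and cover counting error over cells only.

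**Figure D1:**
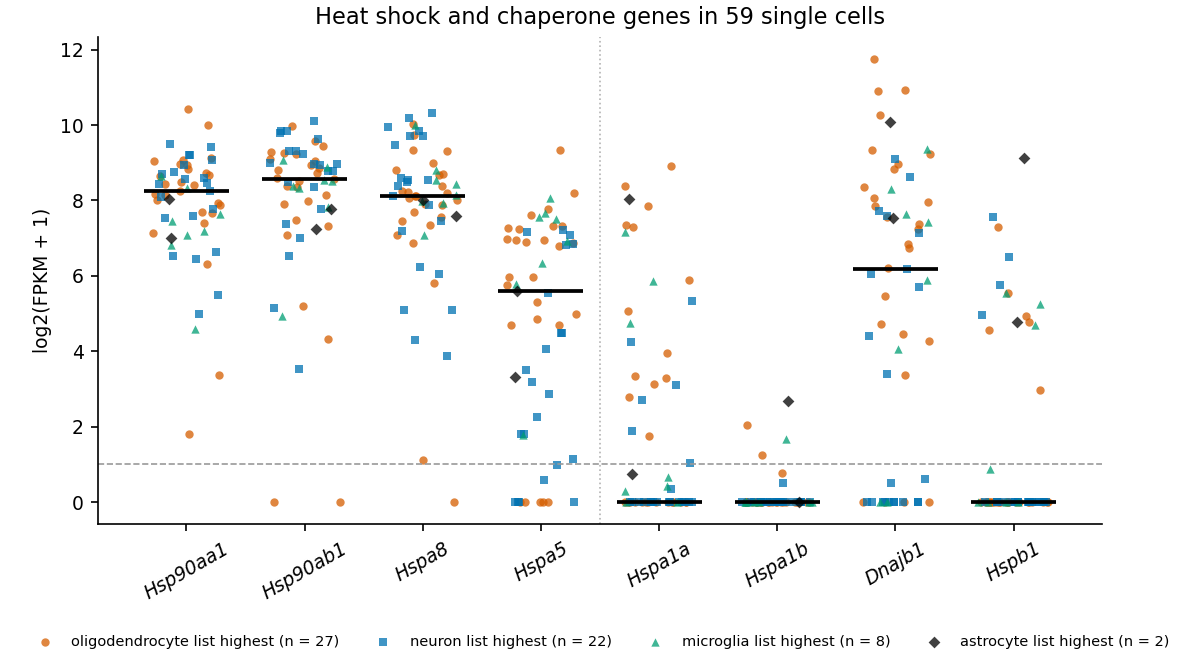
Level of each member in each of the 59 cells as log2(FPKM + 1), with 1 point per cell, coloured by the marker list that was highest in that cell; black bars mark medians and the dashed line marks the detection threshold of 1 FPKM. The constitutive members stand left of the dotted line, where Hsp90aa1, Hsp90ab1 and Hspa8 form compact columns and Hspa5 spreads down to 0, and the inducible members stand right of it, where many cells are at 0 and Dnajb1 reaches 3453 FPKM.

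Hsp90ab1, the cytosolic Hsp90 that is made at steady levels, had the highest median of the members. Its FPKM ran from 0 through a median of 376 to 1103 in cell 48, numbered as in the labels. That median ranked 38 among all genes, and 49 of the 59 cells lay between 100 and 1000 FPKM. Its gene lies at chr17:45567775-45573271 on the minus strand (GRCm38, GENCODE M21, as for the genes that follow). Hsp90aa1, the cytosolic Hsp90 that also responds to heat (chr12:110690605-110702728, minus strand), ran from 2.51 through a median of 303 to 1385 FPKM in cell 41. Its lowest value, in cell 27, still passed the threshold, and 48 cells lay between 100 and 1000 FPKM. Hspa8, the constitutive cytosolic Hsp70 Hsc70 (chr9:40800984-40810087, plus strand), ran from 0 in cell 53 through a median of 279 to 1271 FPKM in cell 48. These 3 genes had coefficients of variation over cells of 0.652 (Hsp90ab1), 0.734 (Hsp90aa1) and 0.837 (Hspa8), the smallest among the members.

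Hspa5 stood apart from the other constitutive members. Its gene lies at chr2:34771970-34777547 on the plus strand, and its FPKM ran from 0 through a median of 47.2 to 644 in cell 40. It was at 0 in 9 cells, between 0 and 1 FPKM in 2, and above 100 FPKM in 24, and its coefficient of variation was 1.27. Within cells, Hspa8 exceeded Hspa5 in 56 cells and was lower in 2, with a median log2 difference of 2.75.

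Dnajb1, the main inducible J-domain partner of cytosolic Hsp70 (chr8:83608193-83612653, plus strand), had the widest range of the members. Its FPKM was 0 in 16 cells, had a median of 71.8 over all cells and 188 where it was detected, and reached 3453 in cell 34. In 5 cells it exceeded 1000 FPKM: 3453 in cell 34, 1958 in cell 16, 1912 in cell 38, 1232 in cell 53 and 1076 in cell 22. The 3 highest of these cells held 42.7% of its summed FPKM. Constitutive members exceeded 1000 FPKM in fewer cells, 2 for Hsp90aa1, 2 for Hsp90ab1 and 4 for Hspa8.

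Hspa1a, an inducible cytosolic Hsp70 (chr17:34969190-34972156, minus strand), had a median of 0 over all cells and of 25.8 FPKM where it was detected. It exceeded 100 FPKM in 7 cells: 485 in cell 1, 335 in cell 4, 261 in cell 22, 229 in cell 40, 161 in cell 16, 156 in cell 38 and 141 in cell 28. The other 16 cells with a call lay between 1 and 100 FPKM, and in 3 of the 23 cells the call rested on 1 to 3 estimated fragments. Hspb1, the small heat shock protein Hsp25 (chr5:135887919-135889563, plus strand), had a median of 0 and reached 563 FPKM in cell 22, 189 in cell 3 and 155 in cell 18. Cell 22 alone held 41.8% of its summed FPKM, and 11 of its 15 cells lay between 10 and 100 FPKM. Hspb1 is therefore described here mostly by presence and absence.

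Hspa1b (chr17:34956436-34959238, minus strand), which encodes nearly the same Hsp70 as Hspa1a, was close to undetected. It was above 0 in 6 cells, at 5.47 FPKM in cell 22 (14 estimated fragments), 3.12 in cell 37 (11 fragments), 2.16 in cell 50 (7 fragments), 1.39 in cell 59 (1 fragment), 0.70 in cell 17 (2 fragments) and 0.42 in cell 11 (1 fragment). Only cell 22 passed 5 FPKM (1.69% of cells). Hspa1a was at 0 in cells 37, 59 and 11, at 261 FPKM (707 fragments) in cell 22, at 7.76 FPKM (24 fragments) in cell 17 and at 0.58 FPKM (2 fragments) in cell 50. Because the transcripts of Hspa1a and Hspa1b share sequence, as given at the end, their separate levels are uncertain.

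In the order of medians, Hsp90ab1 was above Hsp90aa1 in 41 of 59 cells (69.5%, 56.1 to 80.8), with a median log2 difference of 0.56 and an SD of 1.87. Hsp90aa1 was above Hspa8 in 32 cells (54.2%, 40.8 to 67.3), with a median log2 difference of 0.05 and an SD of 1.87. Hspa8 was above Dnajb1 in 45 cells (76.3%, 63.4 to 86.4), with a median log2 difference of 2.36 and an SD of 4.11. Between Dnajb1 and Hspa5, Dnajb1 was higher in 30 cells, Hspa5 in 24 and both were equal in 5. Hspa5 exceeded Hspa1a in 46 cells and was lower in 7. Hspa1a and Hspb1 were level, with 17 cells against 15 and the others equal, and Hspb1 exceeded Hspa1b in 15 cells and was lower in 4. Within the cytosolic Hsp70 family, constitutive Hspa8 exceeded inducible Hspa1a in 56 cells and was lower in 2, with a median log2 difference of 6.84.

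The constitutive group lay above the inducible group within nearly every cell. The mean log2(FPKM + 1) of the 4 constitutive members had a median of 7.37, and that of the 4 inducible members a median of 2.16. The difference within a cell had a median of 5.18 with an SD of 1.88 over cells, ran from -1.08 to 8.73, and was above 0 in 57 of 59 cells (96.6%, 88.3 to 99.6). Its size depended on the pseudocount, and with a pseudocount of 10 in place of 1 the median was 3.19. The 2 exceptions were of different kinds. Cell 22, at -1.08, was an astrocyte-high cell with 5228 detected genes in which all 4 inducible members were detected. Cell 53, at -0.40, had 519 detected genes, with Dnajb1 at 1232 FPKM and Hsp90ab1, Hspa8 and Hspa5 at 0.

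**Figure D2:**
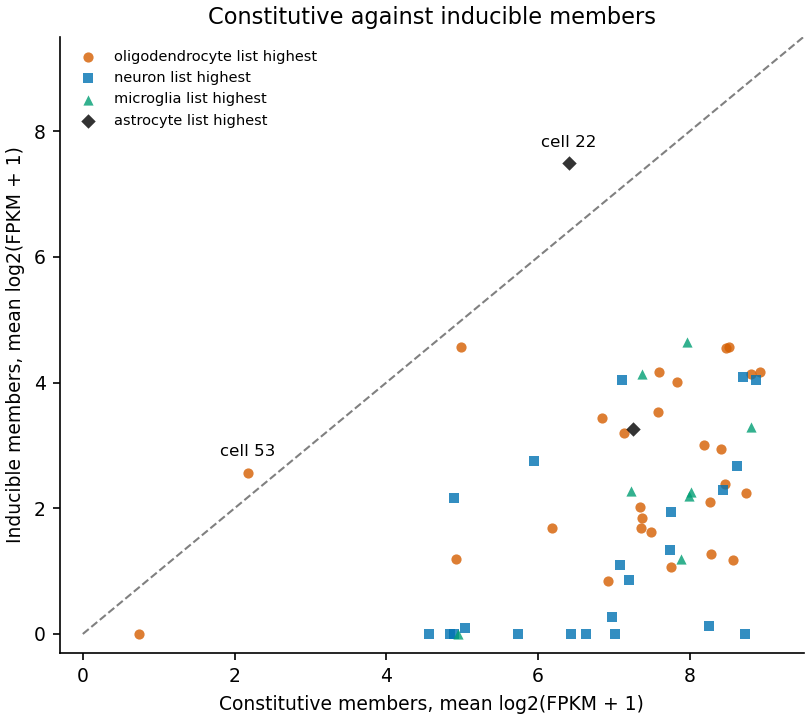
Mean log2(FPKM + 1) of the 4 constitutive members (horizontal) against that of the 4 inducible members (vertical), 1 point per cell, marked by the marker list that was highest in the cell, with the line of equality dashed. Of the 59 cells, 57 lie below the line, and cells 22 and 53 lie above it.

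At least 1 inducible member was detected in 46 of 59 cells (78.0%, 65.3 to 87.7). None was detected in 13 cells, 1 in 18 cells, 2 in 20 cells, 3 in 7 cells and all 4 in cell 22. Dnajb1 was the most widely detected of them: 14 cells held Dnajb1 alone, 10 held it with Hspa1a, 7 with Hspa1a and Hspb1, 6 with Hspb1 and 3 with Hspa1b. It was detected in 18 of the 23 cells with Hspa1a, 14 of the 15 with Hspb1 and all 4 with Hspa1b. These counts stand beside its share of 69.5% over all cells, and whether they exceed it was not tested. Hspa1a was found without Dnajb1 in 5 cells, 4 of them with Hspa1a alone and 1 with Hspb1. The number of inducible members moved with the number of all genes detected. Medians were 1855 detected genes in the cells with none, 3666 in those with 1, 5018 in those with 2 and 7075 in those with 3. The part of that number, or of depth in fragments, in these counts was not tested.

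The cytosolic constitutive members followed each other from cell to cell. Rank correlations (Spearman rho over the 59 cells, which share depth and carry no p-value) had a median of 0.45 over the 6 constitutive pairs (0.16 to 0.56), 0.18 over the 6 inducible pairs (0.02 to 0.34) and 0.09 over the 16 mixed pairs. Given the number of genes detected in each cell, the partial medians were 0.35, 0.06 and -0.08. The medians are not like for like, since Hspa1b was at 0 in 53 cells, Hspb1 in 43 and Hspa1a in 31, so most of their cells are tied. The part of these ties in the values was not tested. Hsp90aa1 with Hsp90ab1 and Hsp90ab1 with Hspa8 had a rho of 0.56 each, and Hsp90aa1 with Hspa8 had 0.48. The highest value among inducible members was 0.34, between Hspa1a and Dnajb1, which were detected together in 18 cells. Hspa5 had a rho of 0.43 with Hspa8 (partial 0.26), 0.37 with Dnajb1 (0.30), 0.32 with Hsp90ab1 (0.11), 0.31 with Hspa1a (0.17) and 0.16 with Hsp90aa1 (0.06). The Hsp90 and Hsc70 transcripts had little relation to Dnajb1 from cell to cell, with a rho of 0.12 for Hsp90aa1, 0.09 for Hsp90ab1 and -0.01 for Hspa8.

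The relation to immediate early genes differed by member. The immediate early list held 33 genes in the table, 31 of them detected in at least 12 cells, and its mean log2(FPKM + 1) ran from 0.33 through a median of 3.12 to 5.70. The rho with this mean was 0.59 for Hspa5, 0.58 for Hspa1a and 0.56 for Dnajb1, and it was 0.33 for Hspb1, 0.22 for Hsp90aa1, 0.21 for Hspa1b, 0.17 for Hspa8 and 0.16 for Hsp90ab1. Of the 8042 genes detected in at least 12 cells, 258 (3.21%) had a rho of 0.5 or more, against 3 of the 8 members. Hspa5 lay above 99.5% of these genes, Hspa1a above 99.4% and Dnajb1 above 99.0%, whereas Hsp90aa1 lay above 40.0%, Hspa8 above 27.1% and Hsp90ab1 above 25.1%. The mean of the 4 inducible members had a rho of 0.70, above 99.9% of genes, and that of the 4 constitutive members had 0.52, above 97.6%. These last percentiles set a mean over 4 genes beside single genes.

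The number of detected genes moved with the immediate early mean, with a rho of 0.55 over the 59 cells. Given that number, the partial rho was 0.53 for Dnajb1, 0.51 for Hspa1a and 0.41 for Hspa5, 0.13 for Hsp90aa1 and 0.10 for Hspb1, and it was below 0 for Hspa8 (-0.09) and Hsp90ab1 (-0.11). Dnajb1 and Hspa1a therefore kept most of their value and Hspb1 did not. The oligodendrocyte list also moved with the immediate early mean (rho of 0.56), the microglia list less so (0.26), the astrocyte list at 0.20 and the neuron list at -0.04. Given the oligodendrocyte list mean, the partial rho was 0.52 for Hspa1a, 0.43 for Hspa5, 0.42 for Dnajb1 and 0.40 for Hspb1. It was 0.25 for Hspa1b, 0.15 for Hsp90aa1, 0.11 for Hspa8 and 0.08 for Hsp90ab1. Values within sets of cells are given below, and the part of the list was otherwise not tested.

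**Figure D3:**
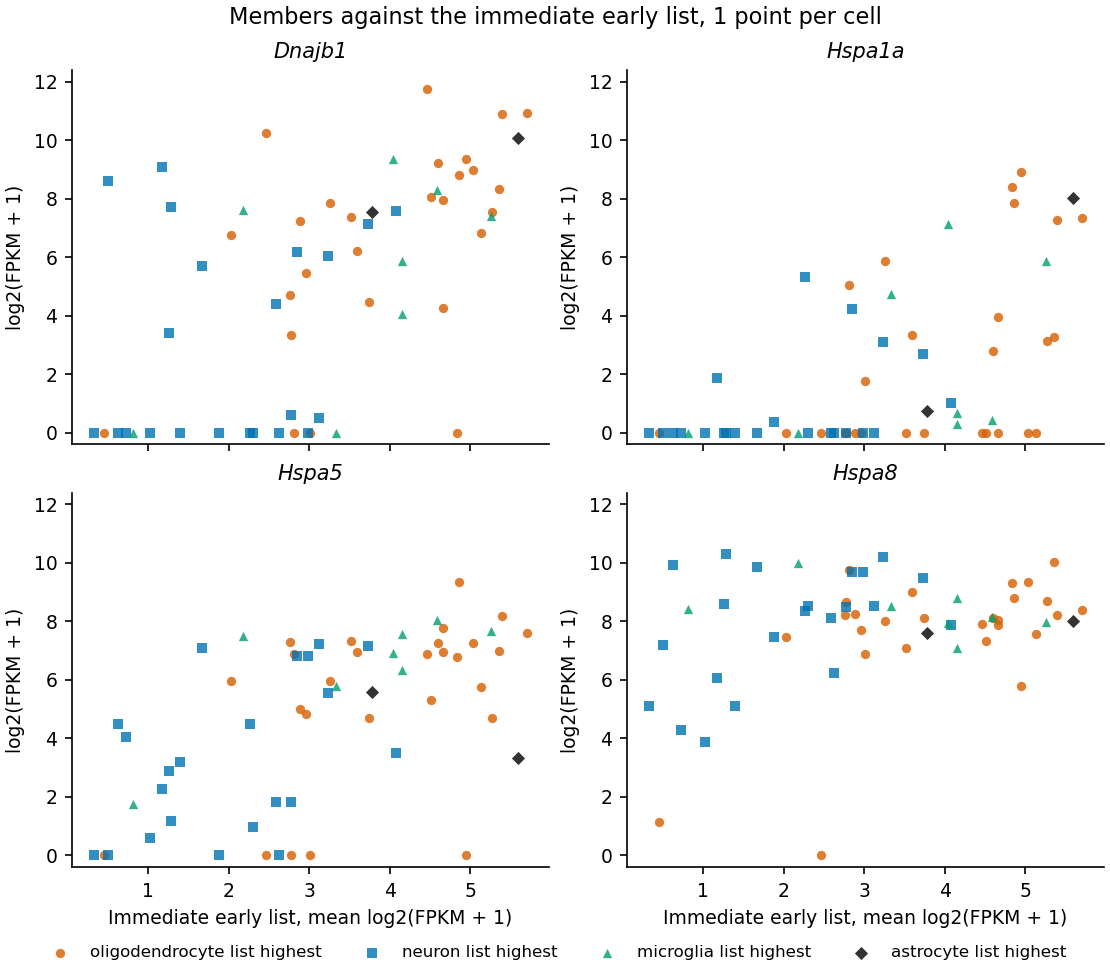
Level of Dnajb1, Hspa1a, Hspa5 and Hspa8 (vertical, log2(FPKM + 1)) against the mean log2(FPKM + 1) of the immediate early list (horizontal) in the 59 cells, marked by the highest marker list. Hspa1a, with a rho of 0.58, exceeds 100 FPKM only in cells with an immediate early mean of 4.05 or more. Over all cells pooled, Dnajb1 and Hspa5 climb with scatter (0.56 and 0.59), and Hspa8 shows little trend (0.17). Within oligodendrocyte-high and neuron-high cells, Dnajb1 had 0.52 and 0.20, and Hspa8 had 0.38 and 0.40.

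Cells with the highest inducible values were mostly, but not all, among those with the highest immediate early means. Cell 16 ranked 1 of 59 in the immediate early mean, cell 22 ranked 2 and cell 38 ranked 3, and each of them exceeded 1000 FPKM of Dnajb1 and 100 FPKM of Hspa1a. Cell 34, with the highest Dnajb1, ranked 17, and cell 53, with 1232 FPKM of Dnajb1, ranked 42. All 7 cells above 100 FPKM of Hspa1a ranked 21 or higher, with cell 1, where Hspa1a was highest, at 9. The cells with the most Hspb1, cells 22, 3 and 18, ranked 2, 20 and 7.

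Gene by gene, Hspa5 and Dnajb1 each had a rho of 0.4 or more with 13 of the 31 immediate early genes, and Hspa1a with 10. The share of all genes reaching 0.4 with each member is not given here, and these counts are not adjusted for depth. Given genes detected, the highest partial rho was 0.57 for Dnajb1 (Junb), 0.51 for Hspa1a (Ier2) and 0.48 for Hspa5 (Egr2). Hspb1 and Hspa1b each had 1 such gene, and Hsp90aa1, Hsp90ab1 and Hspa8 had 0. The highest values of Dnajb1 were with Junb (0.60) and Egr1 (0.56), which encode transcription factors, and with Zfp36 (0.53), which encodes an RNA-decay protein. Hspa1a was highest with Ier2 (0.55), Junb (0.48) and Btg2 (0.47), and Hspa5 with the cytokine feedback gene Socs3 (0.56) and with Egr2 and Junb (0.54 each). The list was not uniform, since Npas4, which is induced by neuronal activity, had -0.13 with Dnajb1, -0.06 with Hspa1a and 0.04 with Hspa5. Homer1, whose short form is induced by activity, had -0.07 with Dnajb1 and -0.09 with Hspa5. Arc, an activity-regulated synaptic gene, had 0.48 with Hspa5 (partial 0.24) and 0.18 with Dnajb1 (partial 0.06).

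The single high value of Hspb1 was with Ier5 (0.61), which encodes a regulator of HSF1, and its next was 0.38 with Ppp1r15a, a gene of the integrated stress response. Given genes detected, the partial rho of Hspb1 was 0.47 with Ier5 and 0.21 with Ppp1r15a. Hspa1b had 0.43 with Nr4a3, a value that rests on 6 cells with any Hspa1b. The highest values of the cytosolic constitutive members were 0.39 for Hsp90ab1 with Nr4a2, 0.38 for Hsp90aa1 with Egr1 and 0.30 for Hspa8 with Arc. Over the 31 genes, the median rho was 0.35 for Hspa1a, 0.34 for Dnajb1 and 0.33 for Hspa5, beside medians over all 8042 genes of 0.15, 0.10 and 0.26. For Hsp90aa1 it was 0.12 beside 0.14, for Hsp90ab1 0.11 beside 0.24 and for Hspa8 0.12 beside 0.24. Hspa1a and Dnajb1 thus ran closer to immediate early genes than to genes at large by these medians, and the difference was smaller for Hspa5.

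**Figure D4:**
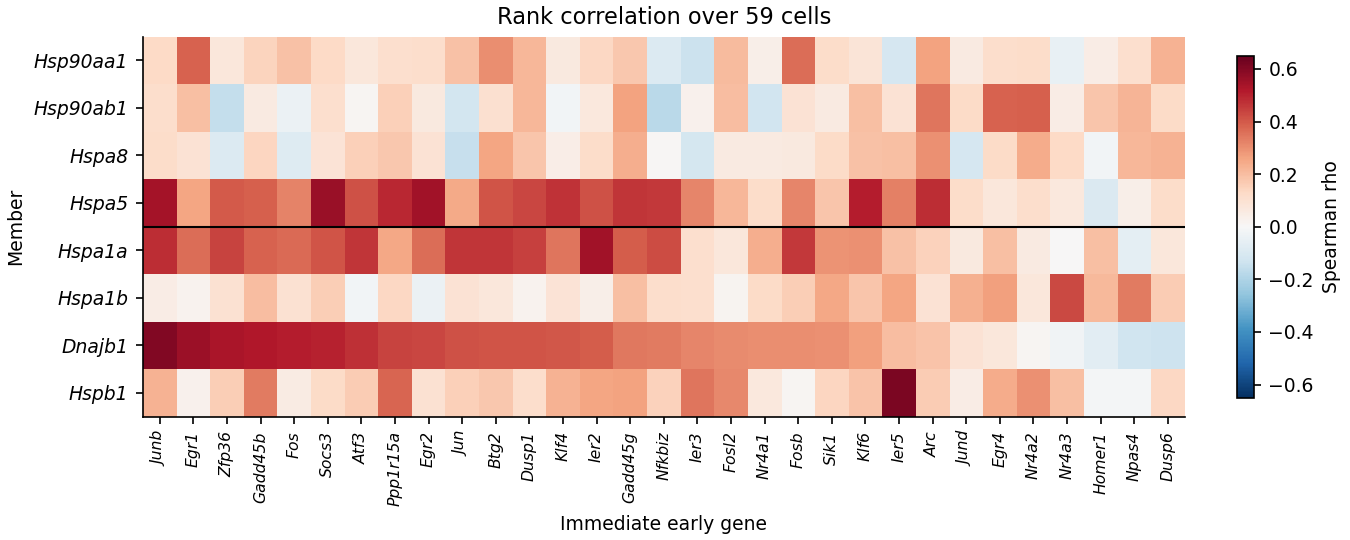
Spearman rho over the 59 cells between each member (rows, constitutive above the line and inducible below) and each of 31 immediate early genes (columns, sorted by their rho with Dnajb1). Dark red cells cluster in the rows of Hspa5, Hspa1a and Dnajb1, whose highest values are 0.56, 0.55 and 0.60, and the rows of Hsp90aa1, Hsp90ab1 and Hspa8 stay below 0.4.

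The medians of Dnajb1 and Hspa5 were lower in neuron-high than in oligodendrocyte-high cells, whereas those of Hsp90aa1, Hsp90ab1 and Hspa8 were not, a description without a test. Dnajb1 was detected in 10 of 22 neuron-high cells (45.5%, 24.4 to 67.8), 23 of 27 oligodendrocyte-high cells (85.2%, 66.3 to 95.8), 6 of 8 microglia-high cells and both astrocyte-high cells. Its FPKM ran from 0 through a median of 0.47 to 550 in neuron-high cells, and from 0 through 166 to 3453 in oligodendrocyte-high cells, so the ranges overlapped. Hspa5 had a median of 7.22 FPKM (0 to 148) in neuron-high, 110 (0 to 644) in oligodendrocyte-high and 150 (2.41 to 266) in microglia-high cells. Hspa1a was detected in 6 of 22 neuron-high (27.3%, 10.7 to 50.2), 13 of 27 oligodendrocyte-high (48.1%, 28.7 to 68.1) and 3 of 8 microglia-high cells, with overlapping intervals. Its highest value was 39.4 FPKM in neuron-high and 485 FPKM in oligodendrocyte-high cells.

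Hspb1 was detected in 4 of 22 neuron-high, 6 of 27 oligodendrocyte-high, 3 of 8 microglia-high and both astrocyte-high cells, where it stood at 26.6 and 563 FPKM. Hspa1b passed 1 FPKM in 0 of 22 neuron-high cells (upper limit of the interval 15.4%, which bounds the share of cells past the threshold and not of cells that express the gene), and neuron-high cell 11 held it at 0.42 FPKM. It was detected in 2 oligodendrocyte-high cells and 1 cell of each other set. Hsp90ab1 had medians of 493 FPKM in neuron-high, 376 in oligodendrocyte-high and 346 in microglia-high cells, and Hspa8 had 345, 276 and 314. Hsp90aa1 had 349, 340 and 160 in the same order. The difference between the constitutive and inducible means had a median of 5.89 in neuron-high and 4.75 in oligodendrocyte-high cells. Beside these values, the median immediate early mean was 2.07 in neuron-high, 4.46 in oligodendrocyte-high and 4.10 in microglia-high cells, and the median number of detected genes was 3357, 4149 and 4693. Cells of a set may come from the same animal, so no test was made, and the part of depth was not tested.

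On a continuous scale, the partial rho with the neuron list mean, given genes detected, was -0.44 for Hspa5 and -0.28 for Dnajb1, and 0.30 for Hsp90ab1. With the oligodendrocyte list mean it was 0.46 for Hspa5, 0.42 for Dnajb1, 0.25 for Hspa1a and -0.12 for Hspb1. Hsp90aa1 had a partial rho of 0.16 with the neuron list and -0.36 with the microglia list. Hsp90ab1 and Hspa5 thus lay at opposite ends of the neuronal scale among the members.

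Because the immediate early mean, the marker lists and the number of detected genes moved together, the relation was also taken within sets. In the 27 oligodendrocyte-high cells the inducible mean had a rho of 0.72 with the immediate early mean, beside a median of 0.25 over 8042 genes, and a partial rho of 0.70. In the 22 neuron-high cells it had 0.39 beside a median of 0.35 over 8022 genes, and a partial rho of -0.05. The constitutive mean had 0.58 in oligodendrocyte-high cells, above 99.0% of genes, with a partial rho of 0.48. In neuron-high cells it had 0.64, higher than the inducible mean and above 96.4% of genes, with a partial rho of 0.04. Dnajb1 had 0.52 in oligodendrocyte-high and 0.20 in neuron-high cells, with partial values of 0.55 and -0.09. Hspa1a had 0.52 and 0.44, with partial values of 0.54 and 0.14, and Hspa5 had 0.45 and 0.50, with partial values of 0.35 and 0.10. In neuron-high cells the immediate early mean had a rho of 0.72 with the number of detected genes, against 0.43 in oligodendrocyte-high cells. The difference between the sets was not tested. In neuron-high cells the relation could not be told apart from the number of detected genes, which is a different measure from depth in fragments.

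The 3 cytosolic constitutive members had higher values in oligodendrocyte-high and in neuron-high cells than over all cells, and Hspa5 had lower ones. Hsp90aa1 had a rho with the immediate early mean of 0.37 in oligodendrocyte-high and 0.47 in neuron-high cells, Hsp90ab1 0.37 and 0.47, and Hspa8 0.38 and 0.40. Given genes detected, the partial values in oligodendrocyte-high cells were 0.38, 0.19 and 0.23, and in neuron-high cells 0.13, -0.10 and -0.05. Hspb1 had 0.26 and 0.48, with partial values of 0.11 and 0.24. The 8 microglia-high cells gave values below the pooled ones for all 3 cytosolic constitutive members: 0.14 for Hsp90aa1, 0.071 for Hsp90ab1 and -0.38 for Hspa8. In these 8 cells Hspa5 had 0.81, above its pooled value of 0.59, and Hspa1a (0.47) and Dnajb1 (0.36) lay below theirs.

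**Figure D5:**
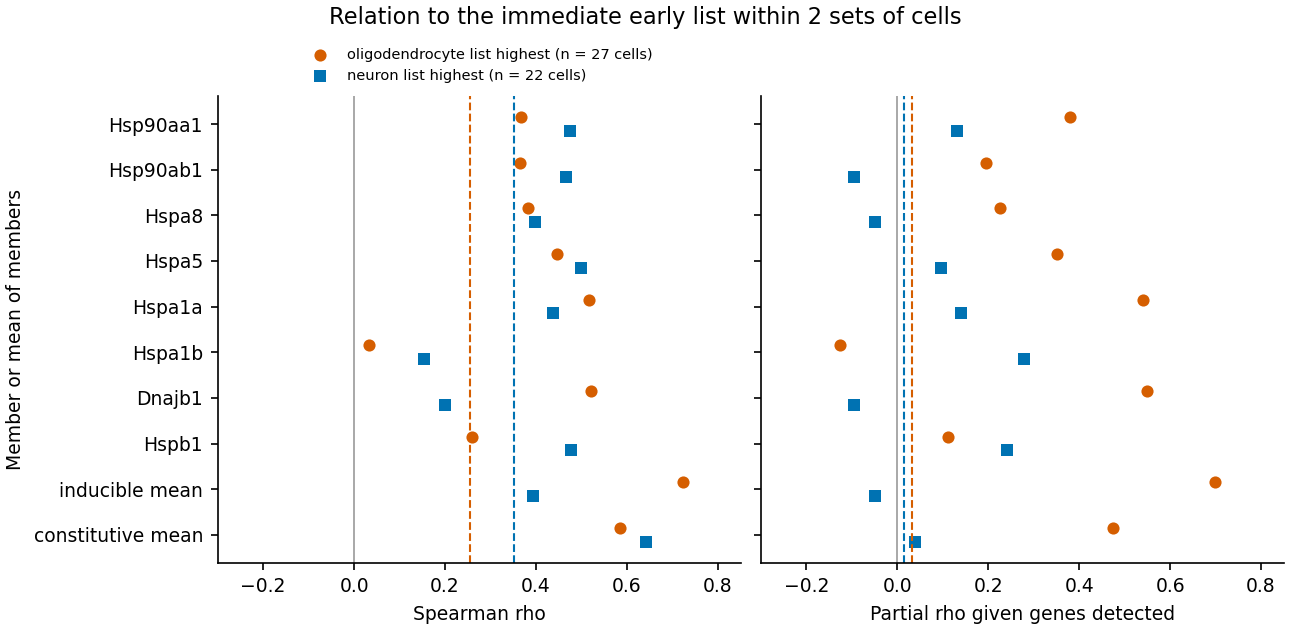
Spearman rho with the immediate early mean (left) and partial rho given genes detected (right) for each member and the means of the 2 groups, within the 27 oligodendrocyte-high cells (circles) and the 22 neuron-high cells (squares); dashed lines mark the medians over all genes. In the right panel the inducible mean stands at 0.70 in oligodendrocyte-high and -0.05 in neuron-high cells, and the constitutive mean at 0.48 and 0.04.

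The wider chaperone system was present in these cells. Its genes followed the constitutive mean more often than the inducible mean, as genes at large did. Of all genes detected in at least 12 cells, 6.95% had a rho of 0.4 or more with the inducible mean and 24.5% with the constitutive mean. Chaperonins, the folding chambers of cytosol and mitochondria, were detected in at least 50% of cells for 10 of 10 genes. Their rho with the constitutive mean was 0.4 or more for 6 of 10, with a median of 0.52 beside 0.32 over all genes, and with the inducible mean for 0 of 10. Cct5 (0.65), Cct7 (0.60) and the mitochondrial Hspd1 (0.58) were among the highest. J-domain genes other than Dnajb1 were widely detected for 11 of 19, among them Dnaja1 in 46 cells, and 8 of the 18 detected in at least 12 cells reached 0.4 with the constitutive mean. The single one to reach 0.4 with the inducible mean was Dnajb9 (0.52), an ER J-domain gene.

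Other Hsp70 and Hsp110 genes were widely detected for 3 of 10, with Hsph1 in 43 cells and the mitochondrial Hspa9 in 37, and 3 of 8 reached 0.4 with the constitutive mean and 0 of 8 with the inducible mean. The ER Hsp90 gene Hsp90b1 was detected in 51 cells. ER stress genes reached 0.4 with the constitutive mean for 10 of 18, a group mean that contains Hspa5, and with the inducible mean for 5 of 18, led by Creld2 (0.54) and Dnajb9. Cochaperones were widely detected for 13 of 18, with St13 in 48 cells, and 6 of 17 reached 0.4 with the constitutive and 2 of 17 with the inducible mean.

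Of 16 other HSF1 target genes, 13 were widely detected, 0 of 16 reached a rho of 0.4 with the inducible mean and 6 of 16 with the constitutive mean. Of the heat shock factor list, 0 of 3 reached 0.4 with the inducible mean. Counts this small cannot be told apart from the background share of 6.95%. The median rho with the inducible mean was 0.26 for the HSF1 targets, beside 0.21 over all genes. Ier5, the regulator of HSF1 on the immediate early list, had 0.42. Among the HSF1 targets, polyubiquitin Ubb was detected in all 59 cells with a median of 1293 FPKM and a rho of 0.20 with the inducible mean. The small heat shock gene Cryab had a median of 435 FPKM with detection in 48 cells and a rho of 0.39, and the Hsp70 cochaperone Bag3 in 18 cells with a rho of 0.27. Hsf1 itself was detected in 20 cells and Hsf2 in 15, and the HSF1-binding gene Hsbp1 in 52 cells with a median of 238 FPKM. By contrast, 17 of the 31 immediate early genes reached 0.4 with the inducible mean, with a median of 0.42 beside 0.21 over all genes, and 9 of 31 with the constitutive mean. Of the oligodendrocyte markers 5 of 11 reached 0.4 with the inducible mean, and of the neuron markers 0 of 15. Housekeeping genes had medians of 0.19 with the inducible and 0.34 with the constitutive mean, close to those of all genes.

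The genes whose cell-to-cell pattern was most like that of each member, among those detected in at least 12 of the 59 cells, differed between the groups. Hsp90aa1 was followed by the kinesin gene Kif3a (rho of 0.60), by Ict1 (0.59), by Hsp90ab1 (0.56), by its pseudogene Gm12346 (0.56) and by Hspd1 (0.55). Hsp90ab1 was followed by the ubiquitin ligase gene Nedd4 (0.70), the secretory carrier gene Scamp5 (0.66) and Kif3a (0.63). Hspa8 was followed by Hspd1, which encodes the mitochondrial chaperonin Hsp60 (0.72), by the glycolytic gene Aldoa (0.66), by Ndufab1 (0.66) and by the proteasome gene Psma7 (0.63). Hspa5 was followed by the ER membrane gene Tmbim6 (0.77), the lysosomal protease gene Ctsb (0.70) and the tetraspanin gene Cd82 (0.69).

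Dnajb1 was followed by the pseudokinase gene Trib1 (0.61), by Junb (0.60), by the cell-cycle inhibitor gene Cdkn1a (0.60), by Sep15 (0.56) and by Egr1 (0.56). Of these 5 genes, 2 were of the immediate early list, which held 31 of the 8042 genes searched. None of the 5 nearest genes of Hspa1a or of Hspa5 was on that list. Hspa1a was followed by the chromatin remodeller gene Chd2 (0.58), Peak1 (0.57) and Slain1 (0.56). Hspb1 was followed by the RNA exosome gene Exosc5 (0.80), by Tigd2 (0.64) and by Ier5 (0.61), and Hspa1b by Usp53 (0.56), values that rest on the 16 and 6 cells with any Hspb1 or Hspa1b. For the mean of the inducible members the nearest genes were Junb (0.65), the amino acid transporter gene Slc3a2 (0.64) and the DNA-damage gene Gadd45b (0.64). These values came from a search over 8042 genes and are given as a description.

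How firmly reads could be assigned differed by member. Of all stretches of 100 bases in the annotated transcripts of Hspa1a, 56.5% were also found in transcripts of other genes, 47.1% in those of Hspa1b. The share was 49.9% for Hspa1b and 44.0% for Hspb1, whose copy Hsp25-ps1 was listed at 0 in all cells. For Hsp90aa1 it was 38.0%, with the pseudogene Gm12346 detected in 24 cells at up to 7.08 FPKM, and for Hspa8 it was 28.5%, with the pseudogenes Gm8355 detected in 28 cells and Gm26825 in 22. It was 0% for Hsp90ab1, Hspa5 and Dnajb1, and with stretches of 50 bases it was 3.44%, 0% and 0.412%. Hspa8 also contains 3 small nucleolar RNA genes, and Hspa1a overlaps the gene Gm20481 on the opposite strand. The handling of reads that fit several genes and of strand is not given in the sources used here. By shared sequence, the levels of Hspa1a, Hspa1b, Hspb1, Hsp90aa1 and Hspa8 are therefore less certain than those of Dnajb1, Hspa5 and Hsp90ab1. Dnajb1 has a limit of another kind, since only 4.65% of its estimated fragment numbers came out whole, and the reason was not tested.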

How the data were processed

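The authors deposited 1 table of FPKM values, with 1 column for each of 59 cells, 20689 genes and 51 synthetic spike-ins. The submitters' processing notes name the aligner STAR 2.5.3a, the counter featureCounts 1.5.3 and the build GRCm38. Not given in the sources used here were the annotation release, the strand setting and the rule for reads with several matches. FPKM was used as deposited, on the scale log2(FPKM + 1) where stated, which understates differences between low genes.

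Members, gene lists and alternatives were chosen with earlier results of these data known. List genes named in the text are those with the highest or lowest detection or rho, and the 5 genes most like each member could be named. Depth was estimated from low FPKM values and GENCODE M21 exon lengths, matched for 19393 genes. A median of 73.2% of values up to 20 fragments were whole within 0.02, so no count model was used, and fragment numbers are approximate. They came out whole for at least 96.4% of values of 6 members and for under 5% of those of Hspa8 and Dnajb1. Intervals are exact Clopper-Pearson 95% intervals. Percentiles of rho are over the 8042 genes detected in at least 12 cells, which 7 of the 8 members passed and Hspa1b did not. No 2 cells held identical values. The steps were tested on simulated data. Calculations used Python 3.11.15, pandas 2.3.3 and scipy 1.17.1. There were 12 alternatives set at the outset and 5 added after the cells had been looked at.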

Additional observations from a re-analysis of the deposited data

How the results depend on the processing

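Over 27 results and 17 alternatives, 216 values were recomputed, of which 45 moved and 0 were labelled reversed. A share of cells counted as moved outside the main value's 95% interval, a rho beyond 0.1 and the constitutive minus inducible median beyond 1 SD over cells, so the 171 others include sizeable shifts. A rho could be labelled reversed only if its main value was called, at 0.4 or more in size. Shares of cells and percentiles have no sign to reverse. The 0 therefore does not show that signs held, and some smaller values changed sign and were labelled moved. In cells with at least 2000 detected genes, rho with the immediate early mean went from 0.16 to -0.19 for Hsp90ab1. It went from 0.17 to -0.056 for Hspa8, and the median of mixed pairs from 0.086 to -0.077. Members were compared within cells, but no pairing by animal was possible because the cells form 1 group and the labels used here name no animal. The causes of the changes were not tested.

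In the 46 cells with at least 2000 detected genes, detection was 100% for Hsp90ab1 and Hspa8 and 93.5% for Hspa5, and rho with the immediate early mean was 0.038 for Hsp90aa1, -0.19 for Hsp90ab1, -0.056 for Hspa8 and 0.45 for Hspa1a. The median of mixed pairs was -0.077 there. In the 39 cells with at least 500000 estimated fragments, Hspa5 was detected in 94.9%, rho with the immediate early mean was 0.052 for Hsp90aa1 and -0.12 for Hspa8, the median of constitutive pairs was 0.32, and Hsp90aa1 with Hsp90ab1 had 0.68. Leaving out cells 22 and 53, the only exceptions, sets detection of Hspa8 and the share with the constitutive mean higher to 100% by construction. At a threshold of 5 FPKM, Hspa1b was detected in 1.69%. The constitutive minus inducible median was 7.31 with a pseudocount of 0.1 and 3.19 with 10.

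With each cell rescaled to 1000000 and mitochondrial genes and Rn18s-rs5 left out of the sum, rho with the immediate early mean was 0.091 for Hsp90aa1 and 0.042 for Hsp90ab1, and the median of constitutive pairs was 0.33. Given genes detected, partial rho with that mean was -0.11 for Hsp90ab1, -0.091 for Hspa8, 0.41 for Hspa5, 0.086 for Hspa1b and 0.095 for Hspb1, and the medians of constitutive, inducible and mixed pairs were 0.35, 0.062 and -0.078. Given the oligodendrocyte list, it was 0.43 for Hspa5, 0.42 for Dnajb1 and 0.60 for the inducible mean.

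In oligodendrocyte-high cells, rho with the immediate early mean was 0.37 for Hsp90aa1, 0.37 for Hsp90ab1, 0.38 for Hspa8, 0.45 for Hspa5 and 0.033 for Hspa1b. In neuron-high cells it was 0.47 for Hsp90aa1, 0.47 for Hsp90ab1, 0.40 for Hspa8, 0.44 for Hspa1a, 0.20 for Dnajb1, 0.48 for Hspb1 and 0.39 for the inducible mean, above 63.3% of the 1912 genes detected in at least 12 of those cells. At least 2 inducible members were detected in 47.5% of cells, 39.0% at 5 FPKM and 56.5% in cells with at least 2000 genes, and at least 1 in 78.0% and, in the latter cells, 87.0%. Low depth limits absence calls, since in the shallowest cells a single fragment can pass 1 FPKM.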
